A study of Mus musculus with 2 samples.

Results

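The 61 genes described here encode enzymes and regulators of antioxidant and thiol metabolism, and they were taken from a table of 12836 genes measured in mouse morulae. They are all genes of the table whose symbol begins with Gpx, Prdx, Gsta, Gstm, Gsto, Gstp, Gstt or Mgst and a digit, or with Txn or Glrx, together with Sod1, Sod2, Cat, Gsr, Gclc, Gclm, Gss, Nfe2l2, Keap1, Nqo1, Hmox1 and Srxn1. The rule reads names alone and no measured value, although it was set with earlier results of these data known. Prefix matching also brings in proteins with a thioredoxin fold that serve other ends, such as Txnl4a and Txnl4b of the spliceosome, and these are described last. One library came from ICR morulae injected with dsNat10, double-stranded RNA against the RNA acetyltransferase Nat10. The other came from ICR morulae injected with dsGFP, double-stranded RNA against a sequence foreign to the mouse. Both groups were injected embryos with no further allele or agent given, and the design text, which speaks of 50 morulae, leaves unclear how many went into each pool. With 1 pooled library per group no difference has a replicate check, no p-value is given, and each value describes these libraries.

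Cells meet superoxide with the superoxide dismutases, which turn it into hydrogen peroxide, and peroxides are then reduced by catalase, glutathione peroxidases and peroxiredoxins. The last 2 families draw electrons from thiols, namely glutathione and thioredoxin, which reductases restore with NADPH. The transcription factor Nrf2, encoded by Nfe2l2, drives many of these genes through a DNA sequence called the antioxidant response element, and Keap1 marks Nrf2 for degradation until oxidants or electrophiles modify its cysteines. Preimplantation embryos carry stores of glutathione laid down in the oocyte and are known to be sensitive to oxidants in culture.

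The letters of that element stand before the start of several members. The core TGACNNNGC was searched on both strands in the 250 bases before each RefSeq start (GRCm38.p6). It was found in 10 of the 53 members with a promoter entry (18.9%), against 13.9% of the genes of the deposited table with an entry. Both shares count a gene with a match in any of its entries. By single entries, which is another unit, 10.2% of all 32851 had a match. The 10 members are Gclm, Gsta3, Gstm5, Gstm7, Nfe2l2, Prdx1, Sod1, Txndc5, Txndc11 and Txnrd1. The stretches below belong to the regulator and to 3 genes it is known to drive, picked after their values were seen. By the size rule given further below, Nfe2l2 was lower in dsNat10, Gclm was higher, and Txnrd1 and Prdx1 were within the limit. Capitals mark the core, which in Gclm, Txnrd1 and Prdx1 lies on the other strand, and each line runs 5′ to 3′ on the strand of the gene.
Gclm, chr3:122245373-122245481, plus strand: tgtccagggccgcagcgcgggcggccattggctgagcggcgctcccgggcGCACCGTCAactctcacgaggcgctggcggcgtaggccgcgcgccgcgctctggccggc
Txnrd1, chr10:82859064-82859172, plus strand: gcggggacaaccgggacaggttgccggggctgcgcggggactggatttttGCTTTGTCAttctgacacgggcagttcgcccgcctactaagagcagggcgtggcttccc
Prdx1, chr4:116685416-116685524, plus strand: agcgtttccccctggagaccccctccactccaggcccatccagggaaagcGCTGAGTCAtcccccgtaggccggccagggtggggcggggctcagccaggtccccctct
Nfe2l2, chr2:75704845-75704913, minus strand: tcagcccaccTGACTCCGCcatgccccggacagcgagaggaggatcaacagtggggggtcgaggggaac
The core begins 134 bases before the start of the promoter entry in Gclm, which lies inside the RefSeq span of the gene, 92 before 1 of the 3 starts listed for Txnrd1, 133 in Prdx1 and 240 in Nfe2l2. In Prdx1 its letters overlap TGAGTCA, a sequence bound by AP-1 factors. A match is a description of letters and says nothing of binding in these embryos.

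The libraries held 28303119 estimated reads in dsNat10 and 29139232 in dsGFP. Nat10, the target of the injected RNA, had 37 reads in dsNat10 against 886 in dsGFP, which is 23.7-fold lower (95% counting interval 17.1 to 33.9). All 11 morula markers were detected in both libraries, with summed levels of 18445 TPM in dsNat10 and 17484 TPM in dsGFP. Most of that sum is Dppa5a, and the other 10 summed to 2595 TPM in dsNat10 and 3248 TPM in dsGFP. By the size rule 4 of the 11 (Cdx2, Nanog, Tead4 and Krt8) were lower, or 36.4%, near the 30.5% of all genes called in either direction. Of 8 oocyte markers, 3 were measured (Zp3, Gdf9 and H1f8), with summed levels of 44.9 TPM in dsNat10 and 6.52 TPM in dsGFP. Zp3 and H1f8 were higher by the size rule, and H1f8 was at 0 in dsGFP. Gdf9 went the other way, with 0.04 TPM in dsNat10 and 1.92 TPM in dsGFP. The 1 measured cumulus cell marker of 8, Amhr2, had 23.9 TPM in dsNat10 and 26.9 TPM in dsGFP. The 4 measured blood or fibroblast markers of 8 summed to 75.2 TPM in dsNat10 and 82.6 TPM in dsGFP, with Col1a1 at 0 in dsNat10. The part of these differences in the results below was not tested.

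The set as a whole took up almost the same share of both libraries. TPM, which divides reads by gene length and scales each library to 1000000, summed over the 61 genes to 9432 in dsNat10 and 9373 in dsGFP, or 0.943% of dsNat10 and 0.937% of dsGFP. In pools of embryos, fewer cells of a type and less RNA per cell cannot be told apart. The same 5 genes stood highest in both libraries and held 60.8% of the summed TPM in dsNat10 and 52.8% in dsGFP. Sod1, the cytosolic copper and zinc superoxide dismutase, was first with 2083 TPM in dsNat10 and 1868 TPM in dsGFP. Next were Gpx4, Txnl4a, Gpx1 and Gsto1, and Gpx4 and Txnl4a exchanged the second and the third place between the libraries.

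**Figure D1:**
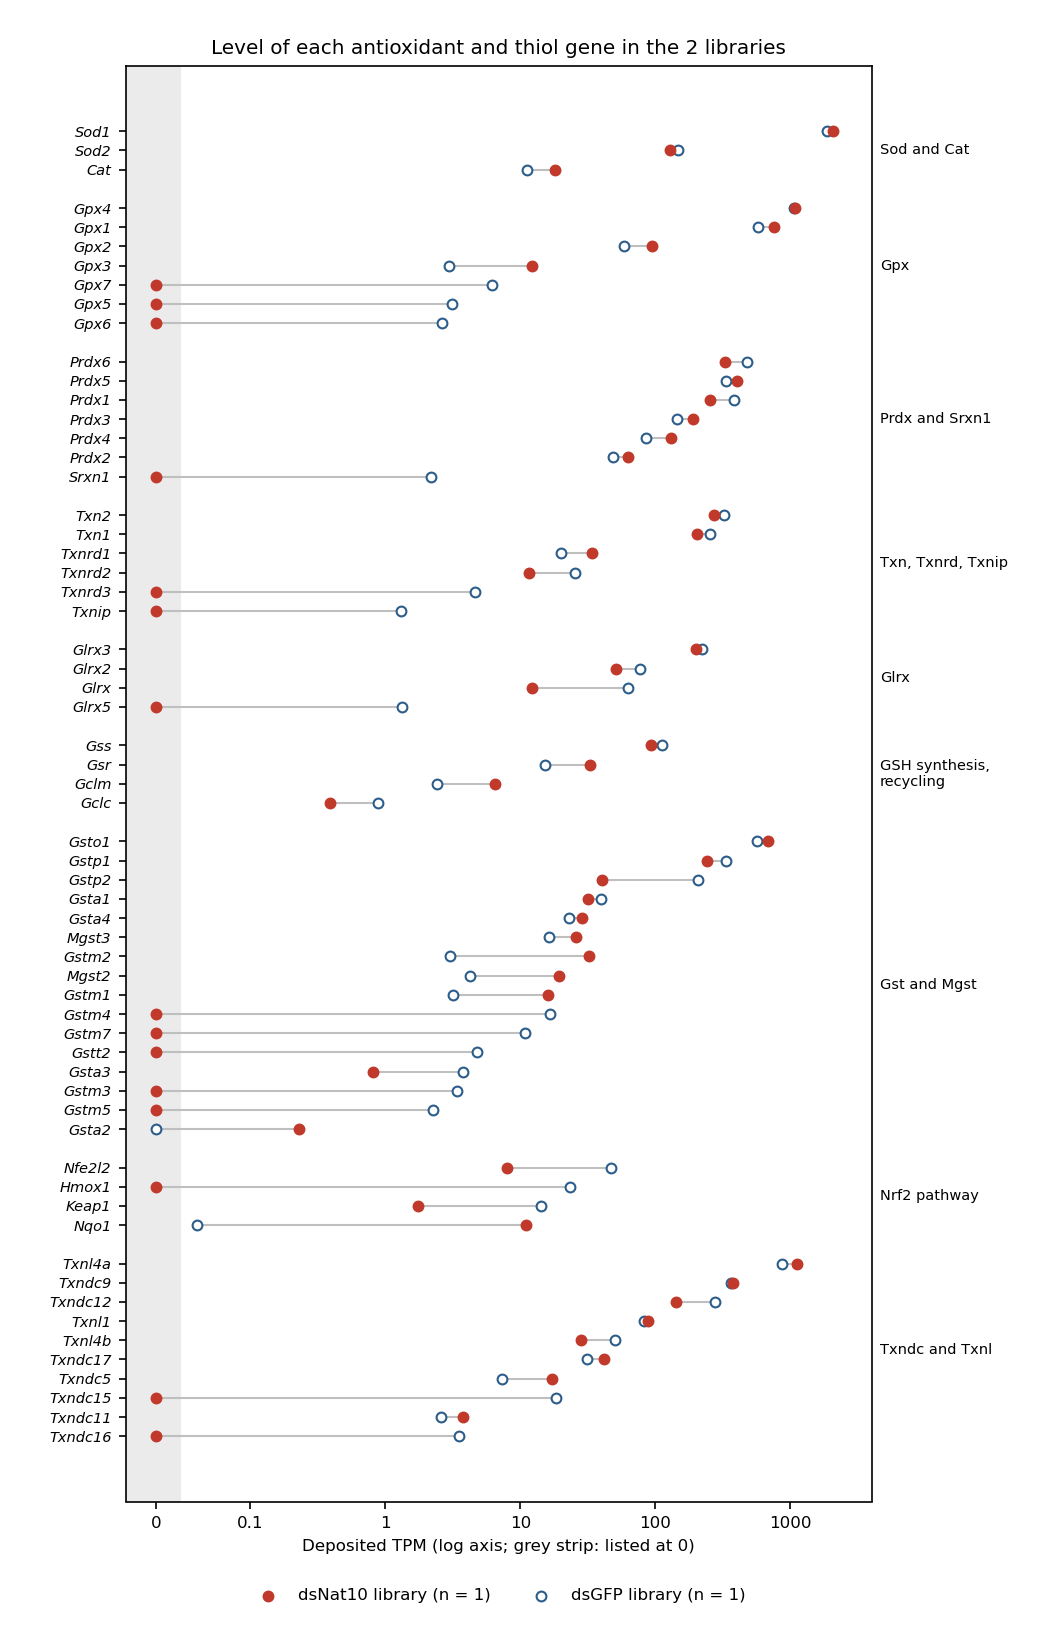
Deposited TPM on a log axis for the 61 genes, one row per gene grouped by role, with filled points for the dsNat10 library and open points for the dsGFP library (n = 1 each, no error bars). Points in the grey strip are listed at 0, which holds for 15 genes in dsNat10 and 1 gene in dsGFP, while abundant genes such as Sod1 lie close together.

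Differences were described by a size rule on CPM, reads per 1000000 after TMM scaling. A call of higher or lower in dsNat10 needed a mean over both libraries of at least 5 CPM, a log2 ratio (with 1 CPM added to each side) of 1 or beyond in either direction, and a 95% interval for the count ratio, by the exact Clopper-Pearson method, that left out equality. Of the 61 members, 45 passed the mean filter, and of these 7 were higher, 9 lower and 29 within the limit. Across all 8738 genes that passed, 15.2% were called higher and 15.3% lower, 30.5% in all, so the 35.6% of members called is near the background. The median log2 ratio was 0.03 over the 45 members and 0.01 over all genes that passed. A gene almost absent from 1 library can pass the mean filter only through the other, and its call then follows from the rule. Folds below are plain CPM ratios with no pseudocount, and their intervals cover counting error only.

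Members that were called lay mostly at low abundance. At a mean of 100 CPM or more, 1 of 18 members was called (Txndc12), where 4.87% of all such genes were, and log2 ratios ran from -1.01 to 0.34. Between 20 and 100 CPM, 6 of 14 members were called (42.9%, against 25.4% of all genes), and between 5 and 20 CPM 9 of 13 (69.2%, against 54.7%). The plot of ratio against abundance shows this widening for the members and for the other genes alike.

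**Figure D2:**
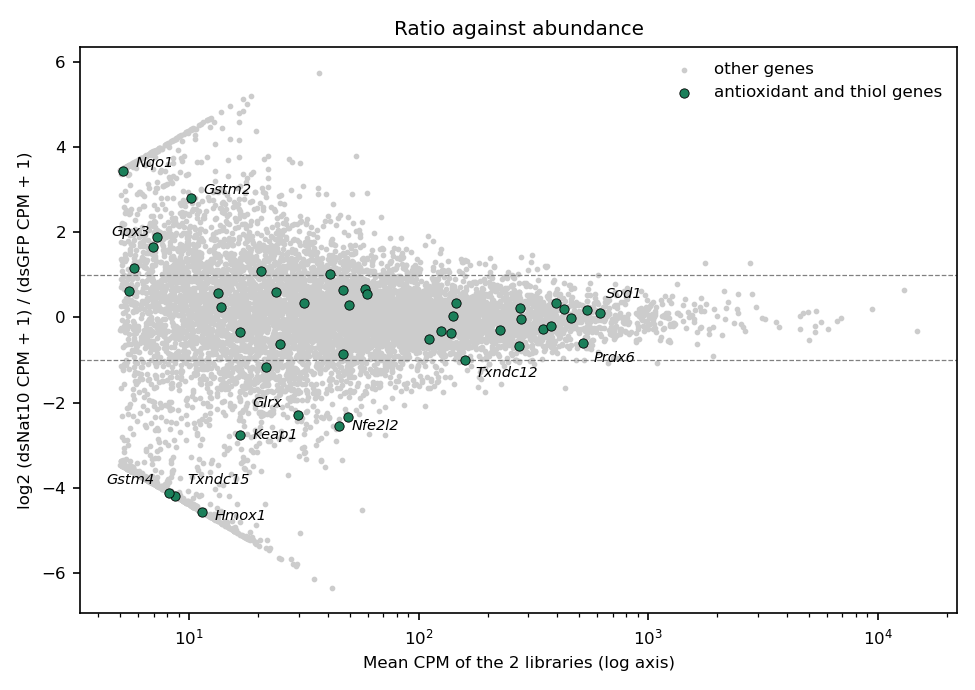
The log2 ratio of dsNat10 to dsGFP, with 1 CPM added to each, against mean CPM on a log axis, for the 8738 genes that averaged at least 5 CPM. Green points are the 45 antioxidant and thiol genes, grey points the others, and dashed lines the limit of 1 in size; the spread narrows to the right, where Sod1 lies at 0.11.

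All 4 genes of the Nrf2 pathway were called, 3 of them lower and 1 higher, against 30.5% of all genes. Hmox1, Keap1 and Nqo1 averaged between 5 and 20 CPM, where 54.7% of all genes were called. Each of these 3 had under 5 CPM in 1 library and passed the filter only through the other. For Hmox1 and Nqo1, almost absent from 1 library, passing the filter already fixed the call. The share of this class called is therefore no measure of the pathway as a whole. Nfe2l2 (Entrez gene 18024, chromosome 2, 75675513 to 75704663) had 355 reads in dsNat10 against 2230 in dsGFP, and its level was 7.93 TPM in dsNat10 and 47.4 TPM in dsGFP. Its CPM was thus 6.22-fold lower in dsNat10 (5.56 to 6.97), and of the 7 members called with a mean of 20 CPM or more it had the lowest log2 ratio (-2.54). Keap1 (Entrez gene 50868, chromosome 9, 21229730 to 21239332), the adaptor that hands Nrf2 to a ubiquitin ligase, had 101 reads in dsNat10 against 856 in dsGFP, 8.39-fold lower (6.82 to 10.4). The transcripts of the factor and of its inhibitor were therefore both lower in the same library.

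Hmox1 and Nqo1, target genes of Nrf2 that are widely used as its readout, differed in opposite directions. Hmox1 (chromosome 8, 75093618 to 75100593), the inducible heme oxygenase, had 0 reads in dsNat10 against 657 in dsGFP and was at least 217-fold lower when 0 is read as a floor of 3 reads in that library. Nqo1 (chromosome 8, 107388225 to 107403205), a quinone reductase that uses NADH or NADPH, had 292 reads in dsNat10 against 1 in dsGFP, a ratio of 295-fold with an interval of 52.5 to 11692. Its level was 11.04 TPM in dsNat10 and 0.04 TPM in dsGFP, while Hmox1, at 0 in dsNat10, had 23.2 TPM in dsGFP. Values at 0 in 1 library also occurred among all genes at such depths, with shares given further below.

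Of 4 genes of glutathione synthesis and recycling, 3 passed the filter and 2 were higher (66.7%). Of all genes, 15.2% were called higher and 30.5% were called in either direction. Gclm, the modifier subunit of glutamate-cysteine ligase, had 237 reads in dsNat10 against 92 in dsGFP, 2.60-fold higher (2.04 to 3.35). Its mean was 5.74 CPM, and between 5 and 20 CPM 54.7% of all genes were called. Gclc, the catalytic subunit of the ligase, was below the filter with 22 reads in dsNat10 against 52 in dsGFP. Gsr, which reduces oxidised glutathione, had 1577 reads in dsNat10 against 777 in dsGFP, 2.05-fold higher (1.88 to 2.24). Its log2 ratio of 1.01 lies at the limit, and it became 0.99 with DESeq2 size factors. Gss, the glutathione synthetase and the most abundant of the 4, had 92.4 TPM in dsNat10 and 112 TPM in dsGFP, with 3177 reads in dsNat10 against 4020 in dsGFP, 1.25-fold lower (1.20 to 1.31).

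**Figure D3:**
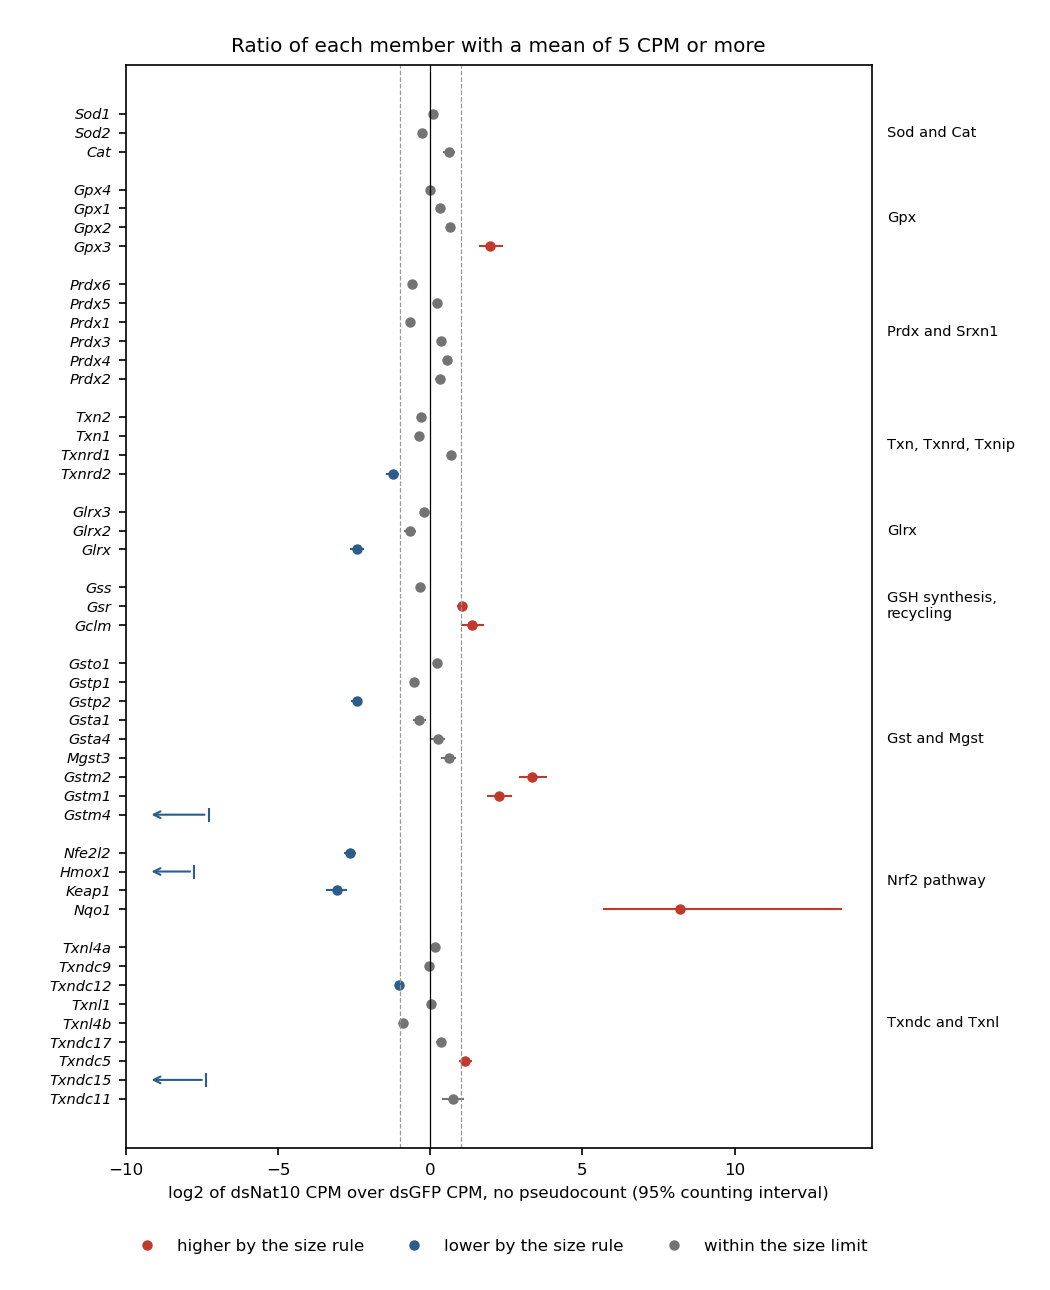
The log2 ratio of dsNat10 CPM over dsGFP CPM without a pseudocount for the 45 genes that passed the mean filter, with exact 95% counting intervals, grouped by role. Red marks the 7 genes called higher, blue the 9 called lower and grey the others; arrows mark Hmox1, Gstm4 and Txndc15, at 0 in dsNat10, from their bound.

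The abundant glutathione peroxidases differed little. Gpx4, which reduces lipid hydroperoxides in membranes, had 1094 TPM in dsNat10 and 1057 TPM in dsGFP, and its 13092 reads in dsNat10 against 13319 in dsGFP give a log2 ratio of -0.01, whose sign turned with plain totals, TPM and FPKM. Gpx1, the general cytosolic form, had 12659 reads in dsNat10 against 10174 in dsGFP, 1.26-fold higher (1.22 to 1.29). Gpx2, first known from the gut, had 1629 reads in dsNat10 against 1050 in dsGFP, 1.57-fold higher (1.45 to 1.70). Of the 4 members of this family that passed the filter, 1 met the size rule (25%, against 30.5% of all genes). It was Gpx3, the secreted plasma form, with 315 reads in dsNat10 against 81 in dsGFP, 3.93-fold higher (3.07 to 5.08). The remaining Gpx5, Gpx6 and Gpx7, which use cysteine in place of selenocysteine, had 0 reads in dsNat10 against 42, 58 and 129 in dsGFP. All 3 lay below the filter. The family summed to 1962 TPM in dsNat10 and 1713 TPM in dsGFP.

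Peroxiredoxins, which reduce peroxides through a reactive cysteine, were all within the size limit, and they went both ways. Prdx1, an abundant cytosolic form, had 6019 reads in dsNat10 against 9651 in dsGFP, 1.59-fold lower (1.54 to 1.64). Prdx6, which has a single reactive cysteine, had 11807 reads in dsNat10 against 18101 in dsGFP, 1.52-fold lower (1.48 to 1.55). The other 4 had more CPM in dsNat10: Prdx4 of the endoplasmic reticulum by 1.48-fold (1.38 to 1.58), the mitochondrial Prdx3 by 1.27-fold (1.21 to 1.32), Prdx2 by 1.24-fold (1.15 to 1.33) and Prdx5 by 1.17-fold (1.13 to 1.21). Counts of Prdx5 are fractional and uncertain, since reads could be split with another gene. Srxn1, the enzyme that repairs over-oxidised peroxiredoxins, had 0 reads in dsNat10 against 116 in dsGFP and lay below the filter. Prdx5, with 405 TPM in dsNat10 and 333 TPM in dsGFP, was the most abundant of these genes in dsNat10. Prdx6, with 331 TPM in dsNat10 and 479 TPM in dsGFP, was the most abundant in dsGFP.

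Superoxide dismutases and catalase were likewise within the limit. Sod1 had 18233 reads in dsNat10 against 17122 in dsGFP, 1.08-fold higher (1.05 to 1.10). Sod2, the manganese enzyme of mitochondria, had 9017 reads in dsNat10 against 10997 in dsGFP, 1.21-fold lower (1.17 to 1.24), with fractional counts. Cat, the catalase of peroxisomes, was rarer, with 822 reads in dsNat10 against 541 in dsGFP, 1.54-fold higher (1.38 to 1.71).

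In the thioredoxin system, 1 of 4 genes that passed the filter, Txnrd2, was called (25%, against 30.5% of all genes). Txn1, Txn2 and Txnrd1 were within the size limit. Txn1, the cytosolic thioredoxin, had 3414 reads in dsNat10 against 4488 in dsGFP, 1.30-fold lower (1.24 to 1.36), and Txn2, its mitochondrial counterpart and the most abundant gene of the class, had 5756 reads in dsNat10 against 7151 in dsGFP, 1.23-fold lower (1.19 to 1.27). Txnrd1, the cytosolic reductase, had 2049 reads in dsNat10 against 1286 in dsGFP, 1.61-fold higher (1.50 to 1.73). Txnrd2, the mitochondrial reductase, was lower by the size rule, with 369 reads in dsNat10 against 878 in dsGFP, 2.36-fold lower (2.08 to 2.67). Its counts are fractional, so its value is uncertain. Txnrd3, a reductase known from testis, and Txnip, an inhibitor of thioredoxin, had 0 reads in dsNat10 against 249 and 69 in dsGFP and lay below the filter.

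Of the glutaredoxins, small thiol enzymes that use glutathione, 3 passed the filter. Glrx was lower, and Glrx2 and Glrx3 were within the size limit, so 33.3% were called, near the 30.5% of all genes. Glrx, the cytosolic form that removes glutathione from proteins, had 270 reads in dsNat10 against 1451 in dsGFP, 5.32-fold lower (4.67 to 6.08). The abundant Glrx3, which handles iron-sulfur clusters, had 9953 reads in dsNat10 against 11650 in dsGFP, 1.16-fold lower (1.13 to 1.19). Glrx2, with fractional counts, had 550 reads in dsNat10 against 878 in dsGFP, 1.58-fold lower (1.42 to 1.76), and the mitochondrial Glrx5 had 0 reads in dsNat10 against 22 in dsGFP. The class summed to 263 TPM in dsNat10 and 363 TPM in dsGFP.

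**Figure D4:**
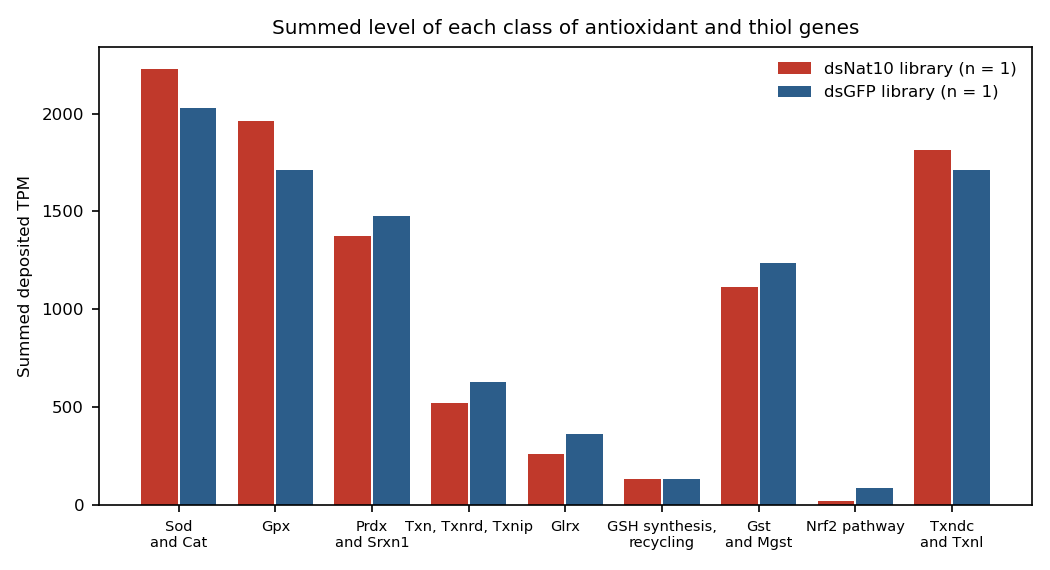
Summed deposited TPM of each class of antioxidant and thiol genes, with bars for the dsNat10 library left of those for the dsGFP library (n = 1 each, no error bars, axis from 0). The lowest ratio of dsNat10 to dsGFP is that of the rare Nrf2 pathway genes, at 20.7 TPM in dsNat10 and 84.8 TPM in dsGFP.

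Glutathione transferases join glutathione to electrophiles. Of 9 that passed the filter, 2 were higher and 2 lower (44.4%, against 30.5% of all genes), and these belong to the Mu and Pi families, each a cluster of similar neighbouring genes. On chromosome 3, Gstm2 (107981702 to 107986420) had 528 reads in dsNat10 against 52 in dsGFP, 10.3-fold higher (7.71 to 13.9), and Gstm1 (108012250 to 108017973) had 343 reads in dsNat10 against 72 in dsGFP, 4.81-fold higher (3.72 to 6.30). In the same cluster Gstm4 (108030571 to 108045179) had 0 reads in dsNat10 against 472 in dsGFP, at least 156-fold lower. Gstm7, Gstm3 and Gstm5, below the filter, had 0 reads in dsNat10 against 264, 70 and 33 in dsGFP. The 6 Gstm genes together held 871 reads in dsNat10 and 963 in dsGFP, 1.09-fold lower, with an interval of 0.997 to 1.20 that includes equality. So 2 of these genes held all Gstm reads in dsNat10, while all 6 had reads in dsGFP. Counts of the 6 Gstm genes are whole numbers in both libraries, unlike those of the Pi genes. The sources used here do not say how the authors assigned reads that match several Gstm genes, so the split among them is uncertain.

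The Pi genes lie side by side on chromosome 19 and have fractional counts. Gstp2 had 446 reads in dsNat10 against 2397 in dsGFP, 5.32-fold lower (4.81 to 5.90), and Gstp1 had 2601 reads in dsNat10 against 3770 in dsGFP, 1.43-fold lower (1.36 to 1.51). Their sum, which does not depend on how reads were split between them, was 3047 reads in dsNat10 and 6167 in dsGFP, 2.0-fold lower (1.92 to 2.09). The most abundant transferase was Gsto1, an omega form with thiol transferase activity, with 680 TPM in dsNat10 and 567 TPM in dsGFP, and 13078 reads in dsNat10 against 11465 in dsGFP, 1.15-fold higher (1.12 to 1.18). Gsta1, Gsta4 and the microsomal Mgst3 were within the limit, with log2 ratios of -0.33, 0.24 and 0.56. Counts of Gsta1 and of Gsta2 are fractional and thus uncertain. Mgst2, below the filter with 162 reads in dsNat10 against 39 in dsGFP, had a CPM ratio of 4.20 (2.94 to 6.12). Of the rarest members, Gsta3 had 18 reads in dsNat10 against 83 in dsGFP, Gsta2 had 3 in dsNat10 against 0 in dsGFP, and Gstt2 had 0 in dsNat10 against 95 in dsGFP, at least 31.3-fold lower.

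Genes with a thioredoxin domain or name but other roles had 1 member higher and 2 lower of 9 that passed, and this 33.3% is near the 30.5% of all genes. Txndc12, a thiol oxidoreductase of the endoplasmic reticulum, had 3006 reads in dsNat10 against 6140 in dsGFP, 2.02-fold lower (1.94 to 2.11). Its log2 ratio of -1.01 lies at the limit and was -0.98 with plain totals, and its gene overlaps Kti12 by 1556 bases. Txndc5, a disulfide isomerase of the same compartment, had 813 reads in dsNat10 against 369 in dsGFP, 2.23-fold higher (1.97 to 2.52). Txndc15, a membrane protein linked to cilia, had 0 reads in dsNat10 against 501 in dsGFP, at least 165-fold lower. The abundant Txnl4a, a protein of the spliceosome with fractional counts, had 1116 TPM in dsNat10 and 872 TPM in dsGFP, and 16333 reads in dsNat10 against 14723 in dsGFP, 1.12-fold higher (1.10 to 1.15). Its relative Txnl4b had 938 reads in dsNat10 against 1748 in dsGFP, 1.84-fold lower (1.70 to 2.0). Txndc9, Txnl1, Txndc17 and Txndc11 had log2 ratios of -0.03, 0.03, 0.34 and 0.62, and that of Txndc9 turned positive in TPM and FPKM. Txndc16 was below the filter with 0 reads in dsNat10 against 278 in dsGFP.

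Properties that the choice of genes did not use cut across these families. The 7 selenoproteins, Gpx1 to Gpx4 and Txnrd1 to Txnrd3, summed to 2007 TPM in dsNat10 and 1751 TPM in dsGFP. Of the 6 that passed, 1 was higher (Gpx3) and 1 lower (Txnrd2), or 33.3%, near the 30.5% of all genes. Their median log2 ratio was 0.48, which leaves out Txnrd3, below the filter with 0 reads in dsNat10 against 249 in dsGFP. The 54 other members summed to 7425 TPM in dsNat10 and 7622 TPM in dsGFP, with a median of -0.03 over 39 that passed. Of the 6 members counted as mitochondrial (Sod2, Prdx3, Txn2, Txnrd2, Glrx2 and Glrx5), 5 passed. Of these, Txnrd2 was lower (20%, against 30.5% of all genes called) and the other 4 were within the limit. The 6 summed to 653 TPM in dsNat10 and 718 TPM in dsGFP. Prdx5, also known from mitochondria, was not counted among them and had 405 TPM in dsNat10 and 333 TPM in dsGFP. The lower sum in dsNat10 thus rests on that choice.

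Zeros were frequent in dsNat10. Of the 61 members, 15 (24.6%) had 0 reads in dsNat10 and 1 had 0 in dsGFP, against 20.7% and 3.57% of all 12836 genes. The 15 had 22 to 657 reads in dsGFP, with a median of 116, and 12 of them lay below the filter, with bounds of at least 7.26-fold to 91.7-fold lower. Among members with 300 to 1000 reads in dsGFP, 3 of 13 were at 0 in dsNat10, where 10.2% of all such genes were. With 100 to 300 reads it was 5 of 6 members, against 31.0% of all such genes, and with 20 to 100 reads 7 of 14, against 54.2%. With 1000 reads or more it was 0 of 26 members, against 0.294% of all such genes. In the other direction, 8.41% of all genes with 100 to 300 reads in dsNat10 were at 0 in dsGFP. With 300 to 1000 reads in dsNat10 it was 3.43%. Among members it was 0 of 6 and 0 of 13. The bounds cover counting error and do not cover zeros of this frequency.

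Other genes of the same metabolism were taken from 8 lists of 130 genes, of which 117 were measured and 92 passed the filter. Of these, 7 were higher and 6 lower, which is 14.1%, against 30.5% of all genes, and the median log2 ratio was 0.06. Calls are rarer among abundant genes (4.87% of all genes at 100 CPM or more). The lists were not matched to all genes for abundance, so the 2 shares cannot be compared directly. Their summed level was 16255 TPM in dsNat10 and 16057 TPM in dsGFP. The most abundant were the ferritin chains that store iron, with Ftl1, whose counts are fractional, at 89562 reads in dsNat10 against 90758 in dsGFP.

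By list, the share called ran from 0% (partners and regulators of Nrf2) to 27.3% (iron and heme handling), against 30.5% of all genes. NADPH supply had 0 higher and 1 lower of 11 (9.09%). The lower gene was G6pdx, the entry enzyme of the pentose phosphate pathway, with 0 reads in dsNat10 against 1119 in dsGFP, at least 369-fold lower. The abundant Taldo1 of that pathway had 7143 reads in dsNat10 against 8471 in dsGFP. Iron and heme handling had 1 higher and 2 lower of 11 (27.3%). The lower genes were Blvrb (23 reads in dsNat10 against 753 in dsGFP) and Blvra (64 in dsNat10 against 341 in dsGFP), biliverdin reductases that act after heme oxygenase, and the higher one was the exporter Abcg2 (723 in dsNat10 against 235 in dsGFP).

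Selenoprotein synthesis and selenoproteins had 1 higher and 1 lower of 15 (13.3%, against 30.5% of all genes), with a median log2 ratio of 0.45. Trnau1ap, which binds the selenocysteine tRNA, had 304 reads in dsNat10 against 960 in dsGFP, 3.13-fold lower (2.74 to 3.57), while Selenow, the most abundant of them, had 5790 in dsNat10 against 4264 in dsGFP, 1.37-fold higher (1.32 to 1.43), within the limit. The higher gene was Selenom, with 232 reads in dsNat10 against 69 in dsGFP. Partners and regulators of Nrf2 had none called of 11 (0%). The cargo receptor Sqstm1, which binds Keap1, had 10532 reads in dsNat10 against 17605 in dsGFP, 1.65-fold lower (1.61 to 1.70), within the limit. The ferroptosis list had 1 higher of 7 (14.3%). It was Gch1, the first enzyme of tetrahydrobiopterin synthesis, with 2155 reads in dsNat10 against 750 in dsGFP, 2.90-fold higher (2.67 to 3.16). The most abundant gene of this list, Lpcat3, had 18856 in dsNat10 against 18403 in dsGFP.

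Cysteine and glutathione supply had 1 higher and 1 lower of 13 (15.4%, against 30.5% of all genes). The higher gene was Slc25a40, a glutathione carrier of mitochondria, with 427 reads in dsNat10 against 149 in dsGFP, and the lower one was Oplah, the 5-oxoprolinase, with 5 reads in dsNat10 against 458 in dsGFP. The most abundant gene of that list, Slc3a2, the heavy chain of amino acid exchangers, had 12216 reads in dsNat10 against 10150 in dsGFP. Methionine sulfoxide reductases with aldehyde clearance had 2 higher and 1 lower of 13 (23.1%). Msra, a methionine sulfoxide reductase, had 319 reads in dsNat10 against 18 in dsGFP, 17.9-fold higher (11.1 to 30.6), and Gstcd had 415 in dsNat10 against 107 in dsGFP. Hagh, a glyoxalase, had 0 reads in dsNat10 against 501 in dsGFP, at least 165-fold lower, and the abundant Akr1a1, an aldehyde reductase, had 10816 reads in dsNat10 against 9766 in dsGFP. Oxidant sources with oxidative folding had 1 higher of 11 (9.09%). It was the monoamine oxidase Maoa, with 697 reads in dsNat10 against 4 in dsGFP, 176-fold higher (68.5 to 648). The disulfide isomerase Pdia3 had 16339 reads in dsNat10 against 17385 in dsGFP. Counts of Slc3a2, Lpcat3, Pdia3, Oplah and Maoa are fractional. Of the 13 called genes of these lists, 11 averaged under 20 CPM and were named after their values were seen.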

How the data were processed

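Polyadenylated RNA from 1 library per group was prepared with SMART-seq2 and sequenced with paired ends, per the labels' protocols. Trimming used Trim Galore, mapping to GRCm38 used HISAT and counting used HTSeq, per the submitters' processing notes, with versions and annotation not given in the sources used here for any of them. The deposited estimated counts were used here as counts not scaled between libraries. A fractional one stands in 23.2% of genes, and no source used here says which program made it. The authors further give TPM, scaled by gene length to 1000000 per library, and FPKM, scaled by length and library total. No per-sample column was left unused.

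Estimated counts were rounded and expressed as CPM with TMM scaling (edgeR 4.0.16, R 4.3.3), which moved log2 ratios by -0.03 against plain totals. The pseudocount was 1 CPM, the filter a mean of 5 CPM, and a zero was read as a floor of 3 reads in its library (0.105 CPM in dsNat10, 0.104 CPM in dsGFP). Reads were amplified by PCR with no molecular identifiers and are not independent molecules, so intervals and bounds cover counting error only, and 1 library per group leaves variation between embryos unmeasured. The size rule, which is no test, was tested on simulated Poisson counts over 8738 genes for dsNat10 against dsGFP. It recovered 100% of 3-fold and 4-fold changes there and called 0% of unchanged genes. Those counts held counting error only, so the simulation cannot say how often the rule errs in real libraries. SMART-seq2 keeps no strand, so overlapping genes cannot be told apart, and 21 members overlap another RefSeq gene. Coordinates came from RefSeq GRCm38.p6, which matched all 61 members by Entrez identifier, and sequences from its promoter table.

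The members and the gene lists were chosen with earlier results of these data known. By the naming rule, every member may be named, with full values for those called and for the most abundant of each class. From the other lists, the rule named called genes averaging at least 20 CPM and the most abundant gene of each, and the remaining called genes were added after their values were seen. Alternatives were plain totals, DESeq2 1.42.0 size factors, other filters and pseudocounts, TPM, FPKM and leaving out genes with fractional counts.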

Additional observations from a re-analysis of the deposited data

How the results depend on the processing

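Of the 16 members called, 0 changed direction in the 9 alternatives, wherever these gave them a value. Another filter or pseudocount, or leaving genes out, cannot turn the sign of a gene's ratio. The other alternatives rescale the same 2 libraries, so this is no independent check of direction. The counts moved with the filter and the pseudocount. With the mean filter at 20 CPM, 2 members were higher and 5 lower, in place of 7 and 9, because fewer genes were considered. With no filter 21 were lower, and the median log2 ratio of members was -0.32, because rare genes at 0 in dsNat10 then entered. With a pseudocount of 5 CPM 4 members were higher. Without genes that have fractional counts the median was 0.20, since 8 of the 45 members that passed were then left out. Counted with zeros at their bound, the median was 0.03 over the 45 members that passed and -0.34 over 60 members with a ratio or bound, against 0.01 and -0.20 over all genes. Of the other listed genes, 1 was higher and 1 lower with that filter, and with no filter 20 were lower and the median was -0.075. The log2 ratio of Nat10 was -3.79, and it was -2.50 with a pseudocount of 5 CPM, -3.07 in TPM and -2.77 in FPKM. Calls at the limit were lost for Txndc12 with plain totals, TPM, FPKM and a pseudocount of 5 CPM, and for Gsr with DESeq2 size factors, FPKM and a pseudocount of 5 CPM. That pseudocount also ended the calls of Gclm, Txndc5 and Txnrd2, and Gclm (TPM and FPKM) and Nqo1 (FPKM) fell below the filter. No paired analysis was possible because each group is 1 library. Counting intervals are widest for members with few reads. Zeros in dsNat10 among genes with 100 to 300 reads in dsGFP (31.0%) stand at nearly equal library totals, and the cause was not tested.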
